A study of Homo sapiens with 15 samples.

Results

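The genes described here make cholesterol and fatty acids and are known targets of the sterol regulatory element-binding proteins (SREBPs), or regulate them. The list holds 31 genes, chosen by name: 3 regulators, 18 enzymes of the sterol pathway, 1 sterol transport protein and 9 enzymes of fatty acid synthesis. Each gene was read from the probe set with the highest mean over all 15 arrays. A probe set of its own was matched for 28 of the 31, out of 19775 genes in all. FDFT1, CYP51A1 and FADS1 were not analysed here, the last 2 because their probe sets carry several gene symbols. MVD (3.54 to 4.21 over the 15 arrays) and FADS2 (2.30 to 2.77) stayed under a log2 signal of 5, the limit used here for low signal, on every array. The other 26 genes were among the 8737 genes compared between the fermentation arrays.

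The cells were Caco-2, a human colon carcinoma line of epithelial cells, used before differentiation and treated for 24 h in serum-free medium. On 12 arrays the medium held 10% by volume of fluid from a colon simulator fed 0%, 1% or 2% polydextrose, a poorly digested glucose polymer, for 48 h. Its 4 linked vessels stand for the ascending (vessel 1), transverse (2), descending (3) and sigmoid colon with rectum (4), so each concentration has 1 array per vessel. The other 3 arrays are medium alone, 100 mM NaCl and 5 mM butyrate, with 1 array each. No repeat simulation or culture is listed in the labels, so p-values measure only the spread among the 12 fluid arrays, and a difference between simulations cannot be told apart from the concentration. The cells are a single tumour line, and in bulk RNA fewer cells of a kind and less RNA per cell cannot be told apart.

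All values are log2 signals as deposited. Between 42.27% and 44.10% of all genes were at 5 or more on each array. Of 8 matched epithelial and intestinal markers, 6 (EPCAM, KRT8, KRT18, KRT19, CDH1 and CDH17) were at 5 or more on all 15 arrays, while VIL1 and CDX2 were under it throughout. All 5 matched leukocyte and 3 endothelial markers and 5 of 6 fibroblast markers were under 5 on every array. COL1A1, the remaining fibroblast marker, was at 1.37 in medium and 3.29 with NaCl, but at 8.13 with butyrate and 5.26 to 8.26 on the 12 fluid arrays. Its signal was thus higher with butyrate and on all 12 fluid arrays than in medium or with NaCl, as those of INSIG1 and SREBF1 were. COL1A2, COL3A1, DCN, LUM and PDGFRB stayed at 2.74 or less on every array. The summed log2 signal of the fibroblast list ran from 12.2 to 19.3 over the arrays, and that of the epithelial list from 80.7 to 84.7.

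SREBPs are made as membrane proteins of the endoplasmic reticulum. When sterols are scarce, the escort protein SCAP brings them to the Golgi, where 2 proteases cut them and release a transcription factor. INSIG proteins hold SCAP back when sterols are plentiful, and INSIG1 is itself an SREBP target. SREBF2 is known mainly for sterol genes and SREBF1 for fatty acid genes, and in the intestinal epithelium the pathway feeds membrane growth and lipoprotein assembly.

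In fluid-treated cells the sterol and fatty acid genes did not share one direction. Of the 26 measured genes, 10 were higher on all 12 fluid arrays than on both the medium and the NaCl array: SREBF1, INSIG1, HMGCS1, IDI1, TM7SF2, MSMO1, STARD4, ACSS2, FASN and SCD. ACAT2 was lower on all 12, and the ranges of the other 15 overlapped those of the controls. For HMGCS1 a second probe set read 9.98 with 1% fluid of vessel 1, below its 10.56 in medium. Of all 8737 genes, 19.8% lay above both controls on all 12 arrays, 15.9% below, and 35.7% on either side. Of the members 38.5% lay above, 3.85% below and 42.3% on either side, so their total is near the background, with more above and fewer below. That difference in direction was not tested. The distance between the nearest fluid and control arrays was 0.96 for ACSS2, 0.65 for INSIG1, 0.54 for SREBF1, 0.43 for FASN, 0.42 for STARD4 and 0.52 for ACAT2, and only 0.06 for SCD and 0.11 for TM7SF2.

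**Figure D1:**
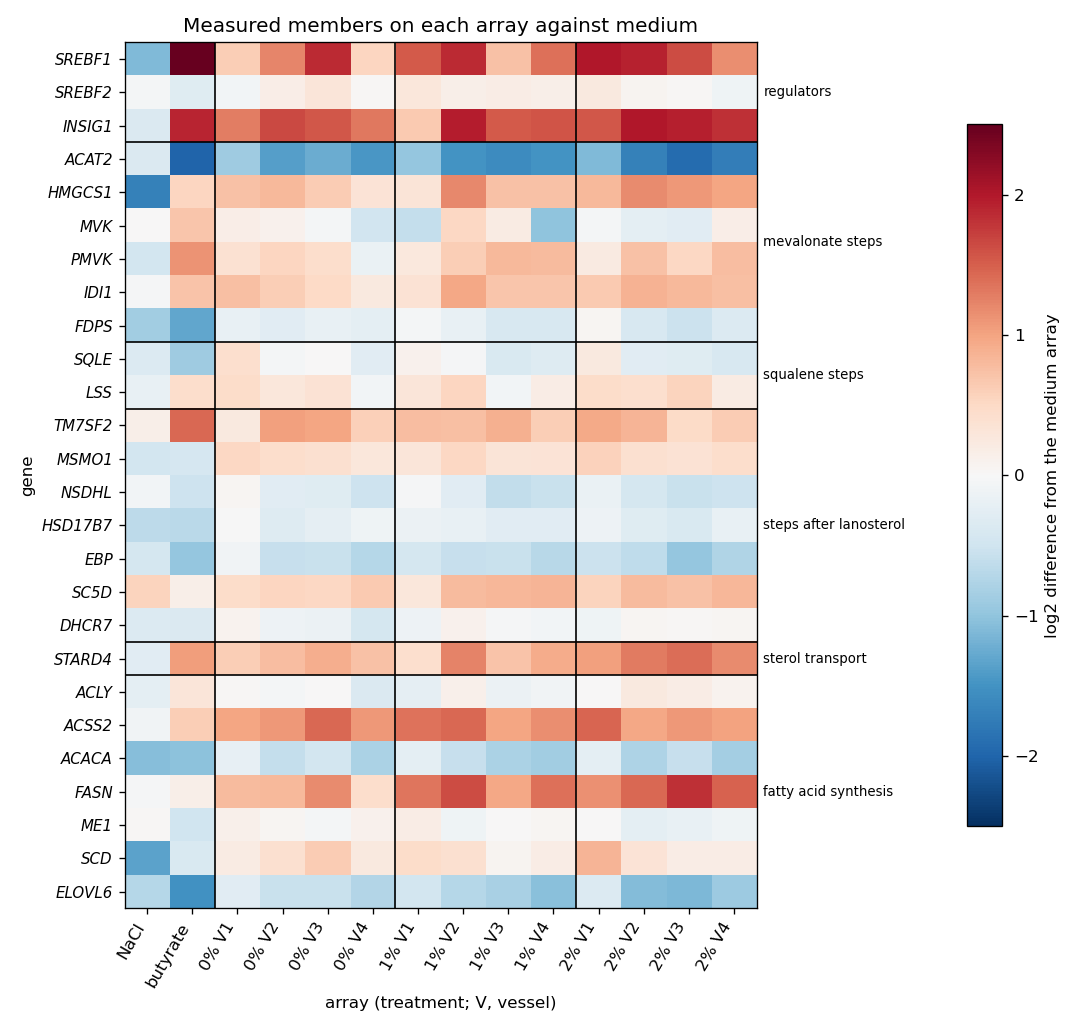
Log2 difference of each array from the medium array (colour, blue lower and red higher) for the 26 measured genes (rows, grouped by role) on the NaCl, butyrate and 12 fluid arrays (columns). INSIG1 and SREBF1 are higher and ACAT2 is lower on all fluid arrays and with butyrate. HMGCS1, with the probe set used, is lower with NaCl (-1.68) and higher on all fluid arrays.

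RefSeq windows of 300 bases, from 250 before to 50 after a gene's start (GRCh38.p14), were found for 27 of the 31 genes, with 37 windows in all. The sterol regulatory element, the site that SREBPs are known for, was searched on both strands as a string of 10 letters, with its core CACCCCAC (which lies within it), the E-box CACGTG, the NF-Y box CCAAT and the GC box GGGCGG. The full element stood in 1 of the 37 windows, that of SREBF2, and in 0.0456% of all 35116 windows. Its core stood in 2.7% of the members' windows and 2.79% of all. The NF-Y box, bound by a factor known to work with SREBPs, stood in 67.6% of the members' windows against 34.6% of all, the GC box in 89.2% against 45%, and the E-box in 10.8% against 7.26%. Several genes have more than 1 window, and windows of 1 gene can overlap. A match describes letters only. Shown here are the 200 bases before the start of INSIG1, HMGCS1, STARD4 and SREBF2. With the probe sets used, the first 3 were higher on all 12 fluid arrays than in medium or with NaCl. SREBF2 was not, and its window holds the full element. Capitals mark the sterol regulatory element, the E-box and NF-Y boxes on either strand. The stretches lie at chr7:155297678-155297877 (plus strand) for INSIG1, chr5:43313413-43313612 (minus strand) for HMGCS1 (the first of 2 listed starts), chr5:111512536-111512735 (minus strand) for STARD4 and chr22:41832905-41833104 (plus strand) for SREBF2.
INSIG1: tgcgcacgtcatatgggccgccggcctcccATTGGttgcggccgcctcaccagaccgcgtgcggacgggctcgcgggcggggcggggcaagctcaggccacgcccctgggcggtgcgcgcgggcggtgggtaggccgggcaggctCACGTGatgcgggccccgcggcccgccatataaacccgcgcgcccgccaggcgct
HMGCS1: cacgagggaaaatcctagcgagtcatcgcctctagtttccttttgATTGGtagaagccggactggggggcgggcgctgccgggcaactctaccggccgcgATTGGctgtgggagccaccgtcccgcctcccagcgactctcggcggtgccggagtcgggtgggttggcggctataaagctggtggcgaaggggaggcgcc
STARD4: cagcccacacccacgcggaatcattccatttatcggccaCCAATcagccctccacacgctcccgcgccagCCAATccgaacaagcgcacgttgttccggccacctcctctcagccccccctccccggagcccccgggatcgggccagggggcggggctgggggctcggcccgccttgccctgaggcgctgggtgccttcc
SREBF2: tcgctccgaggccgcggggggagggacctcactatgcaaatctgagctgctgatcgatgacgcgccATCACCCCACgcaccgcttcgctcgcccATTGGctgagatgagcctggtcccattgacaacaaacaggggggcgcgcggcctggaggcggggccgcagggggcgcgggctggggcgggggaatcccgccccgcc
INSIG1 has an E-box 55 and an NF-Y box 170 bases before its start, HMGCS1 has NF-Y boxes at 155 and 100, and STARD4 has them at 161 and 130. In SREBF2 the element starts 134 bases and the NF-Y box 106 bases before the start.

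Among the regulators, the messages of INSIG1 and SREBF1 were higher on every fluid array and with butyrate than in medium. INSIG1 read 10.82 in medium, 10.45 with NaCl and 12.72 with butyrate. With fluid from vessels 1 to 4 it was at 12.09, 12.47, 12.37 and 12.14 for 0%, 11.47, 12.78, 12.36 and 12.40 for 1%, and 12.38, 12.83, 12.77 and 12.65 for 2%. Vessel 1 with 1% fluid had the lowest fluid value, and even this lay above medium. SREBF1 read 6.79 in medium, 5.69 with NaCl and 9.29 with butyrate. Over vessels 1 to 4 the 0% fluids gave 7.40, 8.02, 8.65 and 7.33, the 1% fluids 8.32, 8.66, 7.53 and 8.17, and the 2% fluids 8.80, 8.72, 8.42 and 7.96. The highest of all 15 arrays was butyrate and the lowest was NaCl, and the fluid arrays scattered widely (SD 0.53 over the 12). SREBF2, the sterol-directed factor, stayed between 7.62 and 8.02 with fluid against 7.72 in medium, 7.67 with NaCl and 7.42 with butyrate, so fluid and control values overlapped. A second probe set of SREBF2 differed from this: it was lower with NaCl than in medium by 1.01 on the log2 scale, where the one used differed by -0.05. That second probe set was also higher with 0% fluid than in medium by 0.51, against 0.11 in the one used. Over the 12 fluid arrays it ran from 7.11 to 8.25, around its 7.21 in medium. With butyrate it differed from medium by 0.08, where the one used differed by -0.29.

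The early, mevalonate steps of the sterol pathway split. HMGCS1 makes the substrate of the pathway's rate-limiting reductase. HMGCS1 read 11.45 in medium, 9.77 with NaCl and 11.98 with butyrate. In vessel order, the signal was 12.18, 12.27, 12.09 and 11.80 at 0%, 11.78, 12.66, 12.19 and 12.18 at 1%, and 12.26, 12.64, 12.53 and 12.43 at 2% polydextrose. The NaCl array was lowest, medium came next, and butyrate lay within the range of the fluid arrays. ACAT2 is the cytosolic thiolase that starts the pathway from acetyl-CoA. ACAT2 read 10.78 in medium, 10.42 with NaCl and 8.78 with butyrate. The 0% fluids of vessels 1 to 4 had 9.90, 9.40, 9.53 and 9.33, those of 1% had 9.82, 9.28, 9.20 and 9.29, and those of 2% had 9.68, 9.10, 8.86 and 9.06. Butyrate was lowest, medium highest, and at each concentration vessel 1 was the highest of the 4 vessels. FDPS makes farnesyl diphosphate. FDPS read 12.05 in medium, 11.18 with NaCl and 10.75 with butyrate. From vessel 1 to vessel 4, FDPS was at 11.86, 11.76, 11.87 and 11.80 with 0% fluid, 12.01, 11.86, 11.64 and 11.65 with 1%, and 12.09, 11.64, 11.51 and 11.70 with 2%. Fluid values overlapped medium and lay above butyrate and NaCl. The isomerase IDI1 ran from 11.20 to 11.92 with fluid (median 11.64) against 10.95 in medium, 10.93 with NaCl and 11.67 with butyrate. Both its usable probe sets are of a type that may bind related sequences. The phosphomevalonate kinase PMVK ran from 6.86 to 7.84 with fluid and reached 8.14 with butyrate, against 7.02 in medium. The mevalonate kinase MVK ran from 5.04 to 6.56 with fluid, on both sides of the 6.05 of medium.

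With the probe sets used, SQLE, NSDHL and EBP were lowest, or nearly so, with butyrate and highest among the fluids in vessel 1. They belong to the squalene steps and the steps after lanosterol. SQLE is squalene epoxidase, a rate-limiting step, and read 10.46 in medium, 10.11 with NaCl and 9.57 with butyrate. With fluid from vessels 1 to 4 it was at 10.88, 10.41, 10.47 and 10.17 for 0%, 10.57, 10.43, 10.07 and 10.13 for 1%, and 10.71, 10.17, 10.16 and 10.06 for 2%. At each concentration vessel 1 was the highest vessel. Another probe set of SQLE differed at 1%, with 8.05 in vessel 1 against 8.65, 8.31 and 8.38 in vessels 2 to 4. NSDHL removes a carbon group from the sterol ring and read 8.07 in medium, 8.01 with NaCl and 7.55 with butyrate. Over vessels 1 to 4 the 0% fluids gave 8.12, 7.79, 7.77 and 7.56, the 1% fluids 8.05, 7.79, 7.46 and 7.51, and the 2% fluids 7.90, 7.63, 7.51 and 7.55. Vessel 1 was again highest at each concentration, close to medium. EBP moves a sterol double bond and read 10.17 in medium, 9.74 with NaCl and 9.21 with butyrate. In vessel order, the signal was 10.09, 9.60, 9.61 and 9.46 at 0%, 9.74, 9.60, 9.62 and 9.47 at 1%, and 9.63, 9.53, 9.20 and 9.42 at 2% polydextrose. Only the vessel 1 array of 0% came near medium. In another probe set of EBP vessel 1 of 1% was at 8.94, below vessels 2 (9.07) and 4 (8.98). SC5D, the sterol desaturase, ran the other way along the vessels. SC5D read 10.97 in medium, 11.52 with NaCl and 11.11 with butyrate. The 0% fluids of vessels 1 to 4 had 11.43, 11.50, 11.49 and 11.63, those of 1% had 11.26, 11.77, 11.80 and 11.82, and those of 2% had 11.53, 11.77, 11.70 and 11.80. Medium was the lowest of the 15 arrays, and vessel 1 was the lowest vessel at 0%, 1% and 2%. LSS, which closes the sterol ring, ran from 8.22 to 8.85 with fluid against 8.29 in medium. TM7SF2, a sterol reductase, ran from 7.81 to 8.58 with fluid, reached 8.99 with butyrate and read 7.56 in medium. The sterol oxidase MSMO1 (12.83 to 13.13 with fluid, 12.55 in medium, 12.13 with butyrate) was the brightest probe set of the group. DHCR7, the last reductase (9.18 to 9.71 with fluid, 9.61 in medium), and HSD17B7 (9.76 to 10.13, 10.14 in medium; probe set of the less specific type) overlapped the controls. STARD4 carries cholesterol between membranes. STARD4 read 8.93 in medium, 8.64 with NaCl and 9.97 with butyrate. From vessel 1 to vessel 4, STARD4 was at 9.54, 9.71, 9.83 and 9.66 with 0% fluid, 9.35, 10.17, 9.64 and 9.85 with 1%, and 9.96, 10.22, 10.32 and 10.12 with 2%. Every fluid array and butyrate lay above medium and NaCl.

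Fatty acid synthesis genes did not share one direction either. FASN is the fatty acid synthase itself and read 8.78 in medium, 8.76 with NaCl and 8.92 with butyrate. With fluid from vessels 1 to 4 it was at 9.57, 9.59, 9.96 and 9.22 for 0%, 10.12, 10.41, 9.74 and 10.15 for 1%, and 9.93, 10.22, 10.60 and 10.26 for 2%. Medium, NaCl and butyrate lay within 8.76 to 8.92 and all 12 fluid arrays above them. ACSS2 makes acetyl-CoA from acetate and read 7.48 in medium, 7.39 with NaCl and 8.10 with butyrate. Over vessels 1 to 4 the 0% fluids gave 8.46, 8.56, 8.91 and 8.57, the 1% fluids 8.84, 8.92, 8.47 and 8.65, and the 2% fluids 8.94, 8.44, 8.56 and 8.49. Fluid arrays were all higher than butyrate, and butyrate was higher than both other controls. SCD puts the first double bond into fatty acids and read 11.84 in medium, 10.50 with NaCl and 11.46 with butyrate. In vessel order, the signal was 12.05, 12.25, 12.48 and 12.09 at 0%, 12.30, 12.24, 11.90 and 12.02 at 1%, and 12.68, 12.18, 12.03 and 12.03 at 2% polydextrose. NaCl was lowest, and the lowest fluid array was 0.06 above medium. ELOVL6 lengthens fatty acids and read 9.17 in medium, 8.46 with NaCl and 7.65 with butyrate. The 0% fluids of vessels 1 to 4 had 8.89, 8.62, 8.61 and 8.43, those of 1% had 8.71, 8.46, 8.36 and 8.12, and those of 2% had 8.83, 8.09, 8.05 and 8.26. All fluid arrays lay between butyrate and medium, with vessel 1 highest at each concentration. ACACA is the acetyl-CoA carboxylase and read 9.10 in medium, 8.03 with NaCl and 8.08 with butyrate. From vessel 1 to vessel 4, ACACA was at 8.89, 8.51, 8.65 and 8.30 with 0% fluid, 8.85, 8.52, 8.31 and 8.24 with 1%, and 8.85, 8.32, 8.53 and 8.26 with 2%. NaCl and butyrate were lowest. A second, dimmer probe set of ACACA (mean 5.30) had 0.02 for butyrate against medium, so its probe sets disagree there. ACLY, which makes acetyl-CoA from citrate, ran from 11.02 to 11.63 with fluid (11.38 in medium), and ME1, which supplies NADPH, from 11.99 to 12.41 (12.23 in medium).

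**Figure D2:**
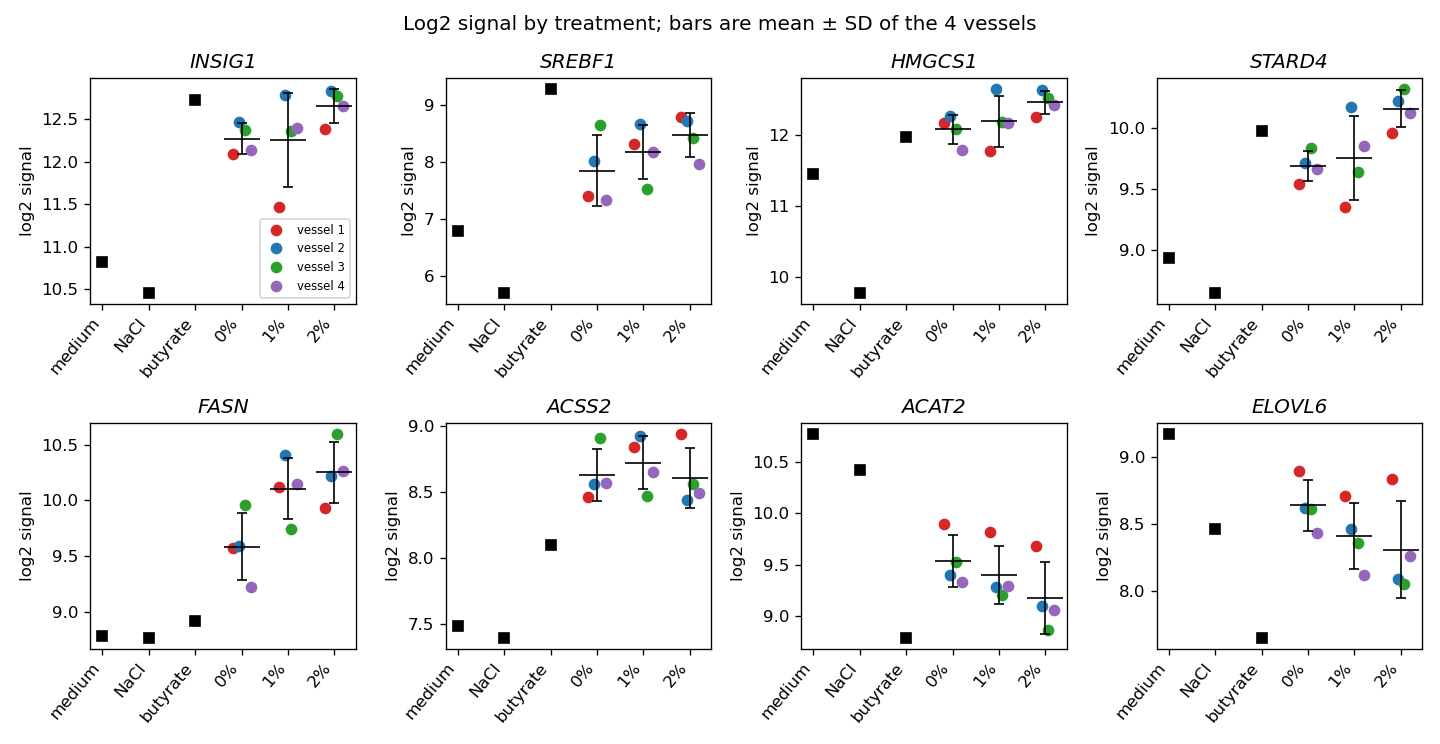
Log2 signal (y axes differ between panels) of 8 genes by treatment (x axis). Black squares are single control arrays, coloured points are vessels 1 to 4 at 0%, 1% and 2% polydextrose, and bars give mean ± SD of the 4 vessels. FASN with fluid starts at 9.22, above all 3 control arrays, while ACAT2 with fluid ends at 9.90, below medium and NaCl, and is highest in vessel 1 at each concentration.

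Butyrate, a short-chain fatty acid made by fermenting bacteria, was compared with medium alone. SREBF1 was higher by 2.49 (5.64-fold), INSIG1 by 1.90, TM7SF2 by 1.42, PMVK by 1.12 and STARD4 by 1.04. ACAT2 was 4-fold lower (a log2 difference of -2.0), ELOVL6 had a difference of -1.52, FDPS of -1.30 and ACACA of -1.02. Thus 5 of 26 members were at least 2-fold higher and 4 at least 2-fold lower, where 31.2% of 8057 genes with a log2 signal of at least 6 on the brighter side passed that fold in either direction (15.6% higher and 15.6% lower). The members' median difference was -0.08 and that of all genes 0.00. With 1 array on each side there is no replicate check and no test. The 3′ probe set of ACTB exceeded the 5′ one, a measure that grows as RNA degrades, by 0.951 on the medium array, the highest of all 15, against 0.641 with NaCl and 0.582 to 0.726 with 0% fluid. With butyrate it was lower than with NaCl. The same measure for GAPDH was -0.112 in medium, -0.056 with NaCl, -0.122 with butyrate and -0.112 to -0.056 with 0% fluid. The part of either measure in the comparisons with medium was not tested. Against the NaCl array in place of medium, FDPS (-0.43) and ELOVL6 (-0.81) no longer passed 2-fold and ACACA had a difference of 0.06. Centred on the array median PMVK (0.90) and STARD4 (0.82) did not pass.

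The NaCl array is the salt control. HMGCS1 differed from medium by -1.68, SCD by -1.34, SREBF1 by -1.10 and ACACA by -1.08. These 4 of 26 were at least 2-fold lower and 0 were at least 2-fold higher, where 16.6% of 7874 genes passed in either direction, 7.67% of them lower and 8.93% higher. Differences were negative for 22 of the 26 and for 3842 of the 7874 genes, with a median of -0.35 against 0.02 over all genes. Some of them were as small as -0.02 (IDI1 and FASN). The largest positive one was 0.56, for SC5D. All 4 probe sets of SCD were lower with NaCl (-0.98 to -1.34), and so were both of HMGCS1 (-1.22 and -1.68). For INSIG1, ACLY, IDI1, ME1 and NSDHL the probe sets differed in sign. There is no replicate check here either.

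Fluid without polydextrose was set against medium to see what the simulator fluid itself goes with. INSIG1 was at 12.27 ± 0.18 (SD, n = 4) against 10.82, a difference of 1.45. ACSS2 was at 8.63 ± 0.20 against 7.48 (1.15) and SREBF1 at 7.85 ± 0.62 against 6.79 (1.06). ACAT2 was at 9.54 ± 0.26 against 10.78 (-1.24). These 3 higher and 1 lower gene make 4 of 26, where 12.6% of 7820 genes passed 2-fold in either direction, 7.81% higher and 4.80% lower. FASN (9.59 ± 0.31 against 8.78), STARD4 (0.76), TM7SF2 (0.71) and HMGCS1 (0.63) were higher by less than 2-fold. For SCD the difference was 0.37 with the probe set used and 0.85 to 1.30 with its other 3. SREBF1 fell short of 2-fold without vessel 3 of 0%, ACAT2 did against NaCl in place of medium (-0.88), and INSIG1 passed in every alternative run. Centred on the array median, only INSIG1 and ACAT2 passed 2-fold. With 2% fluid 6 members were at least 2-fold higher than medium, among them FASN (1.47), STARD4 (1.22) and HMGCS1 (1.02), and ACAT2 was lower (-1.61), where 23.2% of 7925 genes passed in either direction, 11.7% higher and 11.4% lower. With 1% fluid 4 were higher and 1 lower, where 19.7% of 7898 did, 10.8% higher and 8.88% lower. These comparisons share the medium array.

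**Figure D3:**
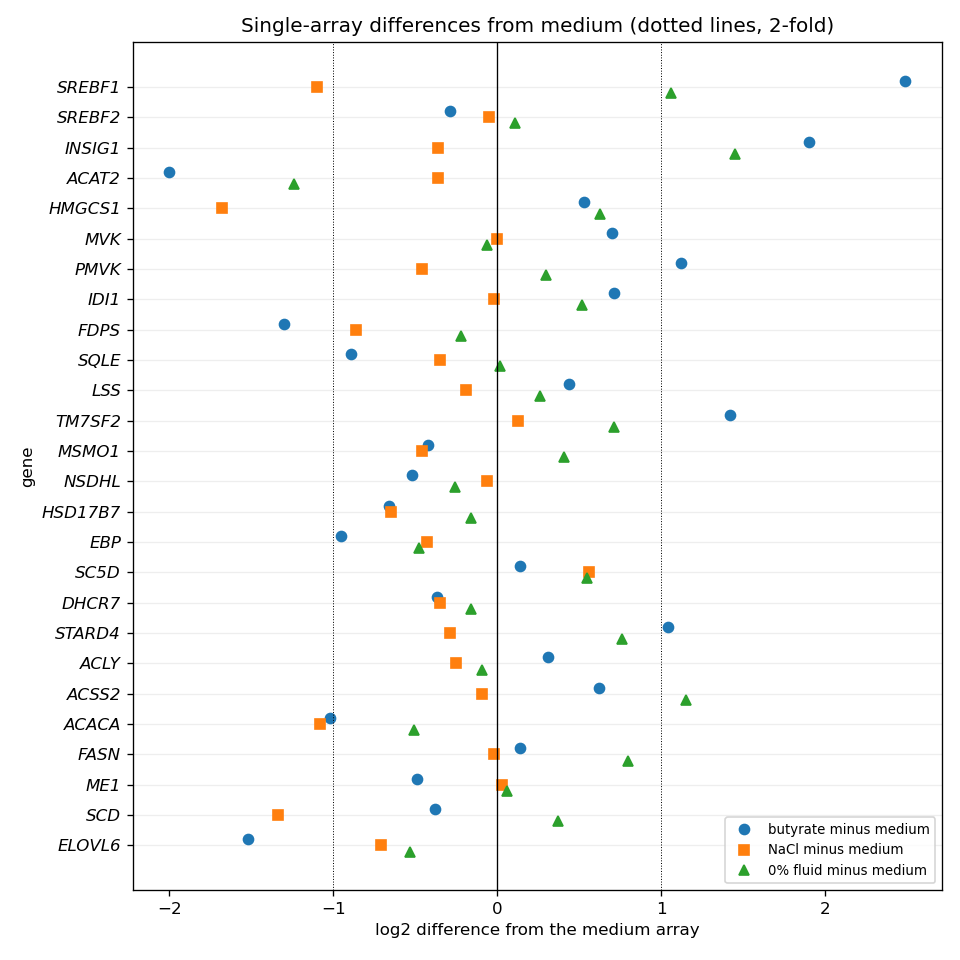
Log2 difference from the single medium array (x axis; dotted lines mark 2-fold) for the 26 measured genes (y axis), with circles for butyrate, squares for NaCl and triangles for the mean of the 4 arrays with 0% fluid. SREBF1 has 2.49 with butyrate and -1.10 with NaCl, FASN and ACSS2 lie further right with fluid than with butyrate, and ACAT2, ELOVL6 and FDPS have their lowest of the 3 values with butyrate (-2.0, -1.52 and -1.30).

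Fluid of 2% from vessels 2 to 4 was compared with pure butyrate. FASN was the 1 member past 2-fold, at 10.36 with fluid against 8.92 (1.44, higher on 3 of 3 arrays), where 3.93% of 7733 genes passed in either direction 2.6% higher and 1.33% lower. SREBF1 was lower with fluid (-0.92) and FDPS higher (0.86), both under 2-fold. The median of the members was 0.29 and that of all genes -0.03. The other probe set of FASN was dim (mean 2.84), and with the mean of both the difference was 0.81. Without vessel 2 of the 2% fluid SREBF1 passed 2-fold as well, which made 2.

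Simulations with and without fibre were set against each other, 2% polydextrose against 0%, to ask what its fermentation adds. By limma with vessel as a block, FASN and STARD4 rose and ACAT2 fell. FASN went from 9.59 ± 0.31 to 10.25 ± 0.28 (SD, n = 4), a log2 difference of 0.67 (SE 0.19, adjusted p = 0.0364), and was higher in 4 of 4 vessels, with ranges that overlapped (up to 9.96 at 0%, from 9.93 at 2%). STARD4 went from 9.69 ± 0.12 to 10.15 ± 0.15 (0.47, SE 0.12, adjusted p = 0.0228), again in 4 of 4 vessels, and its groups did not overlap. ACAT2 went from 9.54 ± 0.26 to 9.17 ± 0.35 (-0.37, SE 0.08, adjusted p = 0.0161) and was lower in every vessel, while its ranges overlapped. The 3 of 26 members compare with 20.8% of 8737 genes called (9.65% higher and 11.2% lower), so the group holds no more calls than the background. The median over the members was 0.01 and over all genes -0.01.

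Several regulators and targets did not pass. HMGCS1 had a difference of 0.38 (95% interval 0.10 to 0.66, adjusted p = 0.058 by limma), INSIG1 of 0.39 (0.07 to 0.72, 0.0831) and SREBF1 of 0.63 (-0.05 to 1.31, 0.167). SREBF2 (-0.05), SCD (0.01), TM7SF2 (0.01) and ACSS2 (-0.02) had intervals on both sides of 0, that of ACSS2 from -0.35 to 0.31. All 15 members with more than 1 usable probe set had the same sign in each of them, though for SCD the size differed (0.25 to 0.48 in its other probe sets). With all arrays of vessel 1 left out, 10 members passed, where 36.7% of all genes did. INSIG1 (0.43), HMGCS1 (0.48), IDI1 (0.36), SC5D (0.22), DHCR7 (0.27), STARD4 (0.49), ACLY (0.30) and FASN (0.77) then rose, and ACAT2 (-0.42) and ELOVL6 (-0.42) fell, with adjusted p from 0.00663 (HMGCS1) to 0.0389 (ACLY) by limma. A second probe set of HMGCS1 was lower at 2% than at 0% in vessel 3 (11.38 against 11.75). It was higher in vessel 2 (12.47 against 11.91) and vessel 4 (11.40 against 11.17). The number of calls changed with single arrays, while the differences of FASN, STARD4 and ACAT2 kept their sign: without vessel 2 of 0%, vessel 3 of 2% or vessel 4 of 2%, 0 members passed, without vessel 4 of 0% 1 did, and without vessel 1 of 0% 11 did. With vessel 1 of 1% left out the number was 5. Calls over all genes moved too: 7.51% passed without vessel 2 of 0% and 10.4% without vessel 4 of 0%. Without vessel 1 of 0% the share was 35%, and without vessel 1 of 1% it was 22%. For the runs without vessel 3 or vessel 4 of 2% the share is not reported here, so their counts have no background. FASN did not pass without vessel 2 or 4 of 0%, vessel 4 of 1%, or vessel 2, 3 or 4 of 2% (differences of 0.54 to 0.73, highest adjusted p = 0.122 by limma). STARD4 did not without vessel 2, 3 or 4 of 0% or vessel 3 or 4 of 2% (0.40 to 0.51, highest adjusted p = 0.0914). ACAT2 did not without vessel 2 or 3 of 0% or vessel 3 or 4 of 2% (-0.29 to -0.38, highest adjusted p = 0.0551), nor with only the 8 arrays of 0% and 2% fitted (-0.37, adjusted p = 0.0657), where 3 members rose and 0 fell. In that fit of 8 arrays 9.88% of all genes passed. With no block for vessel 0 members and 0 of all genes passed, and the 3 had adjusted p of 0.214 to 0.261 by limma.

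For 1% against 0%, 0 of 26 members passed by limma (4.78% of all genes did, 2.63% higher and 2.15% lower). At an unadjusted p under 0.05 were 1 member and 2176 of all 8737 genes. That member was FASN, at 10.11 ± 0.27 against 9.59 ± 0.31 (SD, n = 4, a difference of 0.52, 95% interval 0.10 to 0.95, adjusted p = 0.13 by limma). Without the arrays of vessel 1, IDI1 (0.33, adjusted p = 0.0389) and SC5D (0.25, adjusted p = 0.0436) rose by limma. The share of all genes that passed in that run is not reported here, so these calls have no background. For 2% against 1%, 0 members passed and 0% of all genes did (1608 of 8737 at an unadjusted p under 0.05), with 4 members at an unadjusted p under 0.05 by limma: STARD4 (0.40), INSIG1 (0.40), ACAT2 (-0.23) and ME1 (-0.16).

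**Figure D4:**
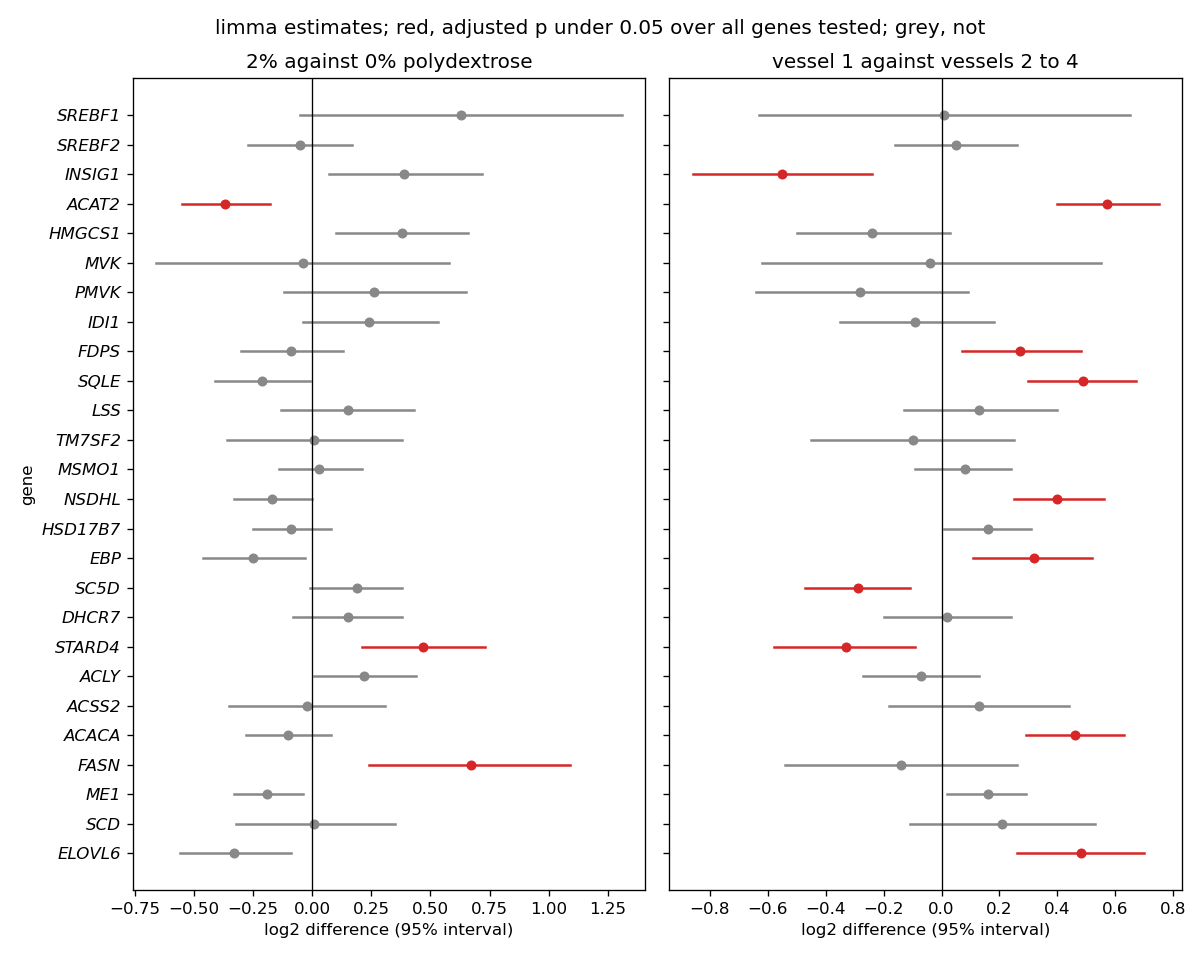
limma estimates for the 26 measured genes (y axis) as log2 differences with 95% intervals (x axis, scales differ between panels), for 2% against 0% polydextrose (left) and vessel 1 against vessels 2 to 4 (right); red marks an adjusted p under 0.05. STARD4, FASN and ACAT2 are red on the left, and 10 genes are red on the right, 7 of them higher in vessel 1.

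Vessel 1, the ascending colon, was compared with the later vessels over all 3 concentrations, with the concentration as a block. Of the 19 tested sterol members 11 did not pass, and 5 were higher in vessel 1: ACAT2 (9.80 ± 0.12, n = 3, against 9.23 ± 0.20, n = 9, SD), SQLE (10.72 ± 0.16 against 10.23 ± 0.16), NSDHL (8.02 ± 0.11 against 7.62 ± 0.13), EBP (9.82 ± 0.24 against 9.5 ± 0.14) and FDPS (11.98 ± 0.11 against 11.71 ± 0.12). So were 2 fatty acid enzymes, ACACA (8.86 ± 0.02 against 8.40 ± 0.15) and ELOVL6 (8.81 ± 0.09 against 8.33 ± 0.22). INSIG1 (11.98 ± 0.46 against 12.53 ± 0.24), STARD4 (9.62 ± 0.31 against 9.95 ± 0.26) and SC5D (11.41 ± 0.13 against 11.70 ± 0.13) were lower.

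By limma the differences were 0.57 for ACAT2 (SE 0.08, adjusted p = 0.00131), 0.49 for SQLE (SE 0.08, adjusted p = 0.00307), 0.46 for ACACA (SE 0.07, adjusted p = 0.00253), 0.48 for ELOVL6 (SE 0.10, adjusted p = 0.00664) and 0.40 for NSDHL (SE 0.07, adjusted p = 0.00321). EBP (0.32, adjusted p = 0.0254) and FDPS (0.27, adjusted p = 0.0432) passed with less room, as did SC5D (-0.29, adjusted p = 0.022), STARD4 (-0.33, adjusted p = 0.0417) and INSIG1 (-0.55, adjusted p = 0.0139). In all 10 of 26 members passed, 7 higher and 3 lower, where 34.7% of 8737 genes did, 19.3% higher and 15.4% lower. The share of members called is thus near the background. The median over the members was 0.06, and 0.02 over all genes.

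Vessel 1 of 1% had much weight in the lower genes. There INSIG1 was 1.04 below the mean of vessels 2 to 4 (a difference of -1.04), against -0.23 at 0% and -0.38 at 2%. Without that array 6 members passed, all higher in vessel 1, and INSIG1 (-0.30, adjusted p = 0.0537 by limma), STARD4, SC5D and FDPS did not. Without vessel 1 of 2% also 6 passed, 5 higher and 1 lower, and EBP, FDPS, SC5D and STARD4 did not. The share of all genes that passed in these runs is not reported here, so the counts have no background. ACAT2, SQLE, NSDHL and ELOVL6 passed in each alternative run except that without the block, where 0 members and 0 of all genes passed by limma and each of them had an adjusted p = 0.0637 or 0.0639. EBP did not pass without vessel 1 of 0% either. FDPS did not without vessel 2 or 4 of 0%, vessel 1, 3 or 4 of 1%, or any vessel of 2%, and STARD4 did not without vessel 3 or 4 of 0%, vessel 1 or 4 of 1%, or any vessel of 2% (highest adjusted p = 0.231 for both by limma). With the mean over all probe sets of a gene, ACACA (0.23, adjusted p = 0.0511 by limma), EBP (0.18, adjusted p = 0.0888) and SC5D (-0.47, adjusted p = 0.052) did not pass. Probe sets differed in sign for ACACA (-0.01 in the dimmer one), LSS and SCD, and a second probe set of HMGCS1 was at -0.96 where the one used was at -0.24. For ACTB the 3′ probe set exceeded the 5′ one by 0.726, 0.924 and 0.620 in vessel 1 at 0%, 1% and 2%, against 0.366 to 0.636 in the later vessels. For GAPDH this measure was -0.056, 0.042 and -0.112 in vessel 1 at 0%, 1% and 2%, against -0.112 to -0.061 in the later vessels. The part of either measure in these differences was not tested.

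Whether the step per percent of polydextrose was another one in vessel 1 was asked with an interaction term. By limma 0 of 26 members passed, where 1.17% of all genes did (0.824% higher and 0.343% lower). An unadjusted p under 0.05 was found for 6 members and for 1739 of all 8737 genes. The smallest p-values were those of TM7SF2 (0.46 more per percent in vessel 1, 95% interval 0.18 to 0.73, adjusted p = 0.0972) and SCD (0.41, 0.16 to 0.66, adjusted p = 0.102). In vessel 1 the 2% fluid stood 0.63 above the 0% fluid for SCD and 0.70 above it for TM7SF2. The same step was -0.07, -0.44 and -0.06 in vessels 2, 3 and 4 for SCD, and -0.17, -0.51 and 0.03 for TM7SF2. SREBF2 followed (0.25, adjusted p = 0.14). With an intensity trend and a robust prior SCD passed.

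Of 57 other genes around the pathway, 47 had a probe set and 32 were tested. At 2% against 0%, 6 rose and 3 fell by limma, against the 20.8% of all genes. LPIN1, a phosphatidate phosphatase under SREBP control, rose from 9.03 ± 0.20 to 9.74 ± 0.31 (SD, n = 4; 0.71, adjusted p = 0.00793), and NPC1, which moves cholesterol out of lysosomes, by 0.51 (adjusted p = 0.0222). ABCG1, a cholesterol exporter and liver X receptor target, rose by 0.88 (adjusted p = 0.00269). TMEM97, a sterol-responsive membrane protein, fell by 0.53 (adjusted p = 0.00846), PDSS1 of coenzyme Q synthesis by 0.64 (adjusted p = 0.0035) and ACSL5, which activates fatty acids in enterocytes, by 1.03 (adjusted p = 0.0141). In SREBP processing 0 of 5 tested genes passed by limma, with 1 at an unadjusted p under 0.05, where 3184 of all 8737 genes were.

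At 1% against 0% ABCG1 rose (0.60, adjusted p = 0.0319) and PDSS1 fell (-0.80, adjusted p = 0.0126) by limma, and the other 30 did not pass, where 4.78% of all genes did. Between vessel 1 and the later vessels 4 of the 32 were higher and 7 lower, where 19.3% of all genes were higher and 15.4% lower. PDSS1 (0.72), TMEM97 (0.66) and ACSL5 (0.99) were higher in vessel 1, and ABCG1 (-0.88), SOAT1, which esterifies cholesterol (-0.60), and LPIN1 (-0.50) were lower, with adjusted p from 0.00108 (PDSS1) to 0.0128 (LPIN1).

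Against medium, butyrate had 7 of 31 of these genes at least 2-fold higher and 3 lower, where 15.6% of all genes were higher and 15.6% lower. ACSL5 read 11.20 in medium, 10.54 with NaCl, 6.71 with butyrate and 8.44 to 10.52 with fluid, and its butyrate difference of -4.48 exceeded those of all the listed sterol and fatty acid genes. The lysosomal lipase LIPA was higher with butyrate by 1.78 and LPIN1 by 1.81, while PDSS1 (-2.05) and TMEM97 (-1.66) were lower. INSIG2, the other INSIG protein, named after its values were seen, read 8.04 in medium, 8.17 with NaCl, 9.15 with butyrate and 8.84 to 9.5 with fluid. ABCG1 was under the limit in medium alone (1.87) and read 7.78 with NaCl, 8.52 with butyrate and 6.49 to 8.40 with fluid. Against the limit of 5 the difference from medium was at least 3.52 with butyrate, 2.78 with NaCl and 2.35 with 0% fluid. The next probe set of ABCG1 was at 2.12 in medium and 3.11 to 5.30 elsewhere.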

How the data were processed

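Total RNA of 15 treatments of Caco-2 cells was read on Affymetrix arrays, 1 array each. The authors deposited 1 table of 54675 probe sets as log2 values, which GCRMA had background-corrected, normalized and summarized per the submitters' processing notes (version not given in the sources used here). The log2 scale was inferred from the range, 0.173 to 14.46. The values were not normalized again. Of all probe sets 41097 had 1 gene symbol, 1801 several and 11777 none; checking symbols by gene identifier changed 0.

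Genes with log2 of at least 5 in at least 4 of 12 fluid arrays entered 1 linear model with factors for concentration and vessel (limma 3.58.1, R 4.3.3; 6 residual degrees of freedom, 5 for the interaction; median residual SD 0.147). P-values are two-sided, adjusted by Benjamini-Hochberg over all 8737 genes, threshold 0.05. The script was tested on simulated data. With the concentration mean taken out, 10 of 12 same-vessel pairs of arrays correlated above 0.1 (median 0.376, against -0.114 for other vessels, a value tied to the first); vessel is a factor of the design.

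Comparisons with a single array have no test; genes were counted from 2-fold if their brighter side reached a log2 of 6. The members and lists were chosen with earlier results of these data known. By rule, every array's value is printed for members that passed a fitted comparison and for the 3 with the largest difference in each single-array comparison. Some listed genes are not reported here. The number of arrays limits the precision.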

Additional observations from a re-analysis of the deposited data

Results flagged for a closer look

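In each concentration's 4 arrays the highest or lowest value was examined for its distance from the others, for 78 groups of 26 genes, of which 4 stood apart. Chance gives about 1 in 20 groups. In vessel 1 of 1% polydextrose, ACAT2 was at 9.82 against 9.20 to 9.29 in the other vessels, and SC5D was at 11.26 against 11.77 to 11.82. In vessel 1 of 2%, DHCR7 was at 9.51 against 9.64 to 9.65. Another probe set of DHCR7 had that array as the highest of the 4, at 8.64 against 8.51 to 8.56. In vessel 2 of 1%, MSMO1 was at 13.06 against 12.85 to 12.89.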

How the results depend on the processing

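The numbers below count members that passed. For 2% against 0% polydextrose the 3 members became 5 with the mean of all probe sets, 6 with an intensity trend and a robust prior, 10 without all arrays of vessel 1, and 0 with no replicate block. In the same order 19.6%, 23.5%, 36.7% and 0% of all genes passed, against 20.8% in the main fit. Leaving out 1 array at a time gave 0 to 11. For 1% against 0% the 0 became 2 without vessel 1. Vessel 1 against the later vessels had 10, 0 with no replicate block, and 6 to 12 with 1 array left out. The interaction had 0, and 1 with an intensity trend and a robust prior. Past 2-fold, butyrate against medium had 9 members and 15 past 1.5-fold; ACACA reversed to 0.06 with NaCl as the control. NaCl against medium had 4, 2 with the mean of all probe sets and 7 past 1.5-fold. The 0% fluid against medium had 4, 2 after centring on the array median, 8 past 1.5-fold and 3 to 4 with 1 array left out. The 2% fluid against butyrate had 1, 8 past 1.5-fold and 1 to 2 with 1 array left out. Shares of all genes past 1.5-fold are not reported here, so those counts have no background. Centring moved an array's median by up to 0.168. In the alternatives run, no other member that passed, or was past 2-fold, changed sign. Low signal left MVD and FADS2 without a comparison.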
